A study of Mus musculus with 4 samples.

Results

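The 7 genes described here build and supply the urea cycle: Cps1, Otc, Ass1, Asl and Arg1, which the study calls urea cycle enzymes (UCEs), together with Nags and Slc25a15. They are 7 of 32285 mouse genes in the files and were chosen by name. Each was measured as CPM (a gene's UMIs scaled to the total of all mouse genes) and as a share of nuclei with a molecule, in hepatocyte nuclei ordered along the liver lobule by the share of Cyp2e1 in the summed UMIs of Cyp2e1 and Cyp2f2. A UMI, or unique molecular identifier, marks 1 captured RNA molecule. Of 42877 nuclei that passed the filter, 29146 were hepatocyte-like, and 10561 of these held at least 5 UMIs of the 2 axis genes and could be placed.

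The urea cycle turns ammonia, which is toxic to the brain, into urea for excretion, and the liver is its main site. Blood enters a lobule at the portal vein and leaves at the central vein. Periportal hepatocytes are known for ureagenesis, while a thin layer of hepatocytes around the central vein takes up remaining ammonia with glutamine synthetase, the product of Glul. Cyp2f2 is a periportal and Cyp2e1 a pericentral cytochrome P450 gene.

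The samples were single-nucleus RNA-seq libraries of frozen mouse liver, 1 library for each of 4 groups. According to the labels and the methods, Bl/6 mice received CD (chow diet) or LPD (low-protein diet) for 1 week, then plasmids with the Sleeping Beauty transposase in a hydrodynamic injection into the tail vein, and stayed on that diet for 2 more weeks. The oncogene groups were given human c-MET and an N-terminally truncated β-catenin, and the control groups were given a vector. This delivery reaches a fraction of hepatocytes, the other liver cells and the untouched hepatocytes remain in the same tissue, and pooling of livers is not stated. The general methods name young adult males for tumour studies, with no age given beside the nuclei experiment. Each group is 1 library, so no difference could be set against the spread between replicates. Ranges in parentheses are 95% intervals, which hold counting error alone.

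The labels of the CD libraries went against the human transgenes. There were 100 transgene UMIs in the library labelled CD control and 0 in that labelled CD oncogene, against 0 and 6 under the labels LPD control and LPD oncogene. Glul, a target of β-catenin, was also higher under the label CD control, at 706 against 156 CPM in the Cyp2e1 end of the axis. The nuclei numbers that the study's text gives for the CD groups lie nearer to the opposite CD library as well. Groups are named by their labels throughout, every contrast with a CD library is one between labels, and values with the 2 CD labels exchanged are given beside those contrasts. The kept nuclei numbered 9825 to 12552 per library, with a median of 1762 to 3807 UMIs, and libraries shared 18 to 40 barcodes in pairs. Of 12 hepatocyte markers, 11, 8, 11 and 12 had a higher CPM in the hepatocyte-like nuclei than in the nuclei of other named cell types, for the labels CD control and oncogene, then LPD control and oncogene, an order kept below. The median fold was only 1.17, 1.11, 1.37 and 1.81, so hepatocyte transcripts were also counted in the nuclei of other types. One hepatocyte-like cluster, of 6015 nuclei, had mitochondrial genes as its 10 leading genes.

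The genes lie on 7 chromosomes of mm10, and all are protein-coding in the GENCODE annotation of that build. Cps1, the mitochondrial enzyme that joins ammonia and bicarbonate to carbamoyl phosphate, spans chr1:67123026-67231259 on the plus strand. Otc, which passes the carbamoyl group to ornithine, spans chrX:10252305-10321024 on the plus strand. Ass1, which condenses citrulline with aspartate, spans chr2:31470207-31520672 on the plus strand. Asl, which splits the product into arginine and fumarate, spans chr5:130011258-130029247 on the minus strand. Arg1, which releases urea from arginine, spans chr10:24915221-24927484 on the minus strand. Nags, which makes the N-acetylglutamate that Cps1 needs as a cofactor, spans chr11:102145513-102149477 on the plus strand, and Slc25a15, the carrier that brings ornithine into mitochondria, spans chr8:22375551-22398597 on the minus strand.

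The RefSeq promoter table (GRCm38.p6) held 4 of the 7 members, and Cps1, Asl and Arg1 are named only. The bases before the gene start of 2 UCEs that were graded along the axis and of Nags, which was near its floor, are shown to let a reader compare them. Capitals mark a match to 1 of the motifs searched. The Otc stretch is chrX:10252055-10252304, the Ass1 stretch is chr2:31470020-31470206 and the Nags stretch is chr11:102145263-102145512, all on the plus strand.
Otc: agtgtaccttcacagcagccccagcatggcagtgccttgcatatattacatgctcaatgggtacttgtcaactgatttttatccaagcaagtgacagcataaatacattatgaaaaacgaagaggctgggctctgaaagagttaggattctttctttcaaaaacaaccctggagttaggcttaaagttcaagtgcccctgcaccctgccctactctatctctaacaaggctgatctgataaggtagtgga
Ass1: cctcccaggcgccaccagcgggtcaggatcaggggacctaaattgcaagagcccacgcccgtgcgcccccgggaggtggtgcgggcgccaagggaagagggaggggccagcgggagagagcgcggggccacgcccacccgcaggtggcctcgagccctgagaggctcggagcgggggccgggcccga
Nags: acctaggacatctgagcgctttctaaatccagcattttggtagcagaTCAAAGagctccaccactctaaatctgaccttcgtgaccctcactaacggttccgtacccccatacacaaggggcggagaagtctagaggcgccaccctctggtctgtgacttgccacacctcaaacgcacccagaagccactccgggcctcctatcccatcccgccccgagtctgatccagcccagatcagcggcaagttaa

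In windows of 300 bases around the start, 6 motifs were searched on both strands: TATAAA for the TATA box, CCAAT for the CCAAT box, TTGCNNAA for C/EBP, AAAGTCC for an HNF4 site, CTTTGA for TCF/LEF and TGACG for the CRE core. Neither Otc nor Ass1 held any of them, and neither did the 2 windows of Slc25a15. Nags held the TCF/LEF motif in reverse at position -203 and the CRE core in reverse at position 32, counted from 1 at the start. Of all 32851 promoters of that length, 13.6% held the TATA motif, 37.4% CCAAT, 10.8% C/EBP, 4.21% HNF4, 16% TCF/LEF and 20.8% the CRE core. The window of Otc had a GC content of 44.3% with 1 CG dinucleotide, against 74.0% with 27 in Ass1 and 57.7% with 14 in Nags.

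Nuclei fell mostly at the ends of the axis. The first of 5 bins, with up to 20% Cyp2e1, held 839 nuclei under the label CD control, 1170 under CD oncogene, 337 under LPD control and 181 under LPD oncogene. The fifth bin, with over 80% Cyp2e1, held 2856, 2012, 779 and 917 nuclei in the same order. The 3 bins between them held 142 to 240 nuclei each in the CD libraries, 51 to 81 under the label LPD control, and 15, 24 and 59 under the label LPD oncogene. Only 59.2%, 43.4%, 18.7% and 19.2% of the hepatocyte nuclei could be placed, in the order above, and the placed nuclei were deeper than the others, with medians of 6964 against 3501, 7568 against 3050.0, 3798 against 2197 and 4056 against 2211 UMIs. The summed UCEs were 2678 CPM in placed against 3869 CPM in other nuclei under the label CD control, and 6220 against 6153 CPM under CD oncogene. They were 5786 against 6901 CPM under LPD control and 4054 against 4950 CPM under LPD oncogene. Values on the axis are thus those of the placed nuclei. Glul, which the placing did not use, was 706 CPM in the fifth bin and 16.3 CPM in the first under the label CD control, and it was higher in the fifth bin in the other 3 libraries too.

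The summed UCEs were highest at the Cyp2f2 end and lowest at the Cyp2e1 end in every library. Under the label CD control the UCE sum was 4373 CPM (95% interval 4326 to 4421) in the first bin and 1821 CPM (1803 to 1839) in the fifth, 2.40-fold higher at the Cyp2f2 end. Under the label LPD oncogene it was 6056 CPM (5882 to 6234) and 3622 CPM (3563 to 3682), a 1.67-fold difference. Under the label LPD control it was 7543 CPM (7399.6 to 7689) and 4737 CPM (4660.5 to 4815), a 1.59-fold difference. Under the label CD oncogene it was 6855 CPM (6805 to 6905) and 5799 CPM (5764 to 5833), a 1.18-fold difference. The gradients thus ranged from 0.24 (0.23 to 0.25) to 1.26 (1.24 to 1.28) on the log2 scale, and the intervals of LPD control, 0.67 (0.63 to 0.71), and LPD oncogene, 0.74 (0.69 to 0.79), overlapped.

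The decline was not spread evenly over the bins. Under the label CD control the UCE sum was 4373, 4336, 3737, 3364 and 1821 CPM from the first to the fifth bin, where the first and second bins had overlapping intervals and the largest step lay between the fourth and the fifth. That step was 0.89 (0.85 to 0.92) of the log2 gradient of 1.26. Under the label LPD control the values were 7543, 7400.3, 7073, 5798 and 4737 CPM, with overlapping intervals between neighbours up to the third bin. Under the label LPD oncogene they were 6056, 5173, 4452, 4318 and 3622 CPM, where the second bin overlapped the third and the third overlapped the fourth. Under the label CD oncogene they were 6855, 6710.1, 6540.1, 6175 and 5799 CPM, where again the first bin overlapped the second and the second the third.

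**Figure D1:**
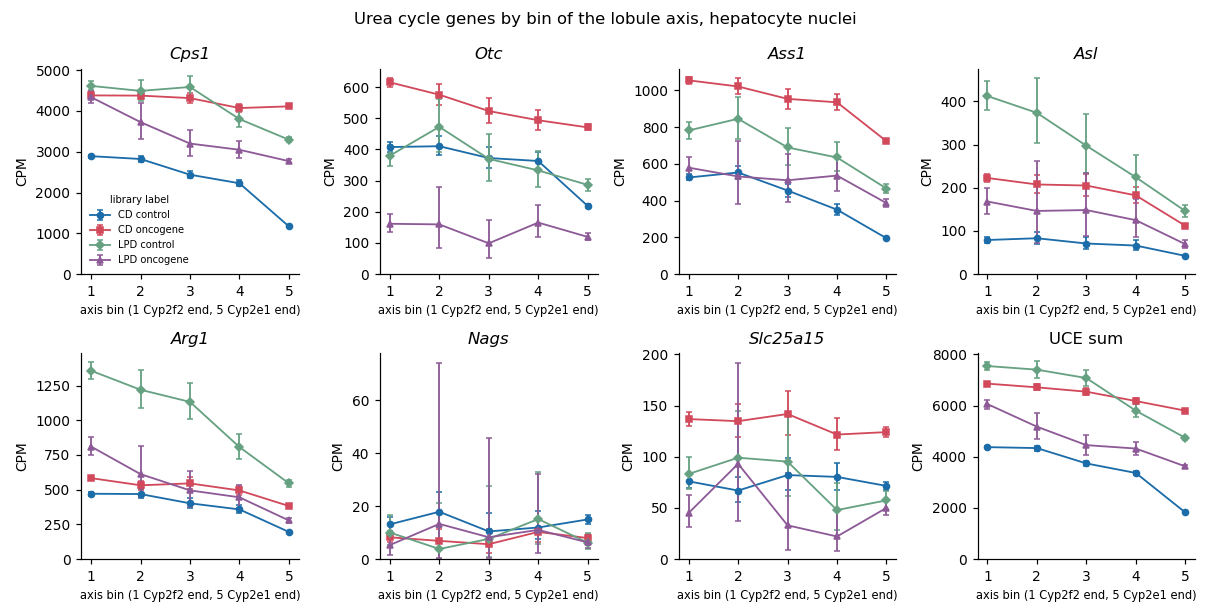
CPM (vertical axis, from 0) of each urea cycle gene and of the UCE sum in 5 bins of the lobule axis (horizontal axis, bin 1 the Cyp2f2 end), 1 line per library label, with bars for exact Poisson 95% intervals. The UCE sum under the label CD control lies between 1821 and 4373 CPM with its steepest step before bin 5, and Nags and Slc25a15 show no common direction, with wide bars in the LPD libraries.

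In each of the 5 UCEs the first bin was above the fifth in each of the 4 libraries, and no interval of these 20 differences included 0. Cps1, which carries the first and rate-limiting step, was 2890.0 CPM in the first and 1169.6 CPM in the fifth bin under the label CD control. The values were 4378 and 4110.1 CPM under CD oncogene, 4612 and 3293 CPM under LPD control, and 4336 and 2768 CPM under LPD oncogene. Cps1 was therefore strongly graded in 1 library, with a log2 gradient of 1.31 (1.28 to 1.33), and nearly level in another, at 0.09 (0.07 to 0.11) under the label CD oncogene.

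Otc, the X-linked mitochondrial enzyme, was among the least graded UCEs, with intervals that overlapped those of Asl under the label CD control, of Cps1 under LPD control, and of Cps1 and Ass1 under LPD oncogene. It was more graded than Cps1 under the label CD oncogene, at 0.39 (0.34 to 0.43). It was 408 and 219 CPM in the end bins under the label CD control and 615 and 471 CPM under CD oncogene. It was 380.1 and 286 CPM under LPD control and 162 and 119 CPM under LPD oncogene. The log2 gradients of 0.90, 0.39, 0.41 and 0.44 were all under 2-fold.

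Ass1, the first cytosolic enzyme of the cycle, was 526 and 196 CPM in the end bins under the label CD control. It was 1055 and 724 CPM under CD oncogene, 782 and 466 CPM under LPD control, and 579.9 and 387 CPM under LPD oncogene. Its log2 gradient was 1.43 (1.37 to 1.49) under the label CD control and between 0.54 and 0.75 in the other libraries.

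Asl and Arg1, the last enzymes of the cycle, were the most graded UCEs in both LPD libraries. Asl also was under the label CD oncogene, at 0.99 (0.91 to 1.08), while Arg1, at 0.61 (0.56 to 0.66), overlapped Ass1, at 0.54 (0.51 to 0.58). Asl was 79 and 42.3 CPM in the end bins under the label CD control and 223 and 112 CPM under CD oncogene. It was 412 and 146 CPM under LPD control and 168 and 69.4 CPM under LPD oncogene, with log2 gradients of 1.5 (1.32 to 1.68) and 1.28 (0.96 to 1.58) on LPD. Arg1 was 470.4 and 195 CPM under the label CD control and 583 and 382 CPM under CD oncogene. It was 1357 and 545 CPM under LPD control and 810.3 and 278 CPM under LPD oncogene, with log2 gradients of 1.31 (1.22 to 1.41) and 1.54 (1.4 to 1.69). On LPD, the intervals of Asl and Arg1 thus lay above those of Cps1, 0.49 (0.44 to 0.53) and 0.65 (0.59 to 0.70).

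Nags and Slc25a15, which support the cycle, had gradients of no fixed direction. Nags was 13.1 and 15 CPM in the end bins under the label CD control, 8.22 and 7.94 CPM under CD oncogene, 10.0 and 6.19 CPM under LPD control, and 5.30 and 6.29 CPM under LPD oncogene. Its log2 gradients were -0.19, 0.05, 0.70 and -0.25 with intervals that all included 0, and the value under LPD oncogene rests on 4 UMIs in the first bin. Slc25a15 was 76.0 and 71.5 CPM under the label CD control, 137 and 124 CPM under CD oncogene, 83.2 and 57.4 CPM under LPD control, and 45.0 and 50.1 CPM under LPD oncogene. Its log2 gradients were 0.09, 0.14, 0.54 and -0.15, and the intervals under CD oncogene (0.05 to 0.24) and LPD control (0.18 to 0.88) lay above 0.

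**Figure D2:**
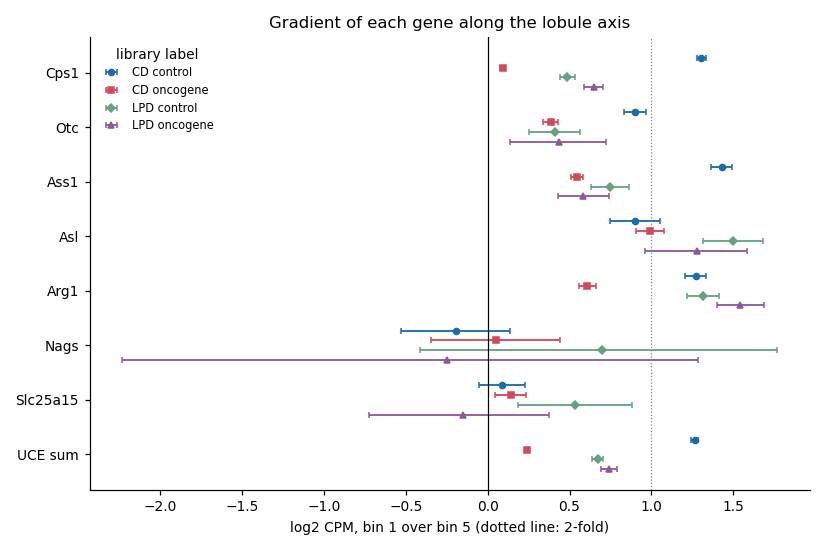
Log2 ratio of CPM in the first over the fifth bin (horizontal axis) for each gene and the UCE sum, 1 marker per library label, with bars for exact conditional 95% intervals. All 20 UCE markers lie to the right of 0, Cps1 runs from 0.09 under the label CD oncogene to 1.31 under CD control, and the bars of Nags cross 0.

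By a rule of at least 2-fold, 3 of the 7 members were higher at the Cyp2f2 end under the label CD control (Cps1, Ass1 and Arg1), 0 under CD oncogene, and 2 under each LPD label (Asl and Arg1). Asl stood just below it under CD oncogene, at 1.99-fold. Of all genes high enough to compare, 2.03%, 2.16%, 1.96% and 2.19% passed that fold in that direction. No member passed it in the other direction, where the shares of all genes were 2.8%, 2.4%, 2.33% and 2.29%. Nags was too low to enter this background, so 6 members stood in it, with median log2 gradients of 1.07, 0.46, 0.62 and 0.61, beside -0.09, -0.11, 0.01 and 0.01 over all genes. A comparator list of 12 known periportal genes was steeper, with medians of 2.57, 2.35, 3.05 and 2.24. Of the 11, 11, 11 and 10 high enough, 9, 8, 8 and 7 passed 2-fold. Hal and Sds, enzymes of histidine and serine breakdown, passed in each library. Igfbp2, with log2 gradients of 0.61, -0.11, 0.04 and -0.20, and G6pc passed in no library, and Pck1 passed only under the label CD control.

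The mitochondrial share of UMIs moved with the axis in the CD libraries. Its median was 8.91% in the first and 1.04% in the fifth bin under the label CD control, 0.578% and 0.290% under CD oncogene, and 0.0499% to 0.0713% in the end bins on LPD. With nuclei of at most 5% mitochondrial UMIs and at least 500 genes, the log2 gradient of the UCE sum under the label CD control was 1.54, and 5 members passed 2-fold. The part of the mitochondrial share in the gradient was not tested further.

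The composition of the UCE sum also differed between the ends. In UMIs, which are not scaled for gene length, Arg1 made up 18.0% of the UCE sum in the first and 11.5% in the fifth bin under the label LPD control, and 13.4% and 7.67% under LPD oncogene. Cps1 made up 61.1% and 69.5% under LPD control and 71.6% and 76.4% under LPD oncogene. Under the label CD oncogene the shares went the same way, with Arg1 at 8.50% and 6.59% and Cps1 at 63.9% and 70.9%. Under the label CD control the shares of Arg1, 10.8% and 10.7%, and of Cps1, 66.1% and 64.2%, were closer to each other.

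At equal depth the same order was seen in single nuclei. Each nucleus was thinned to 1000 UMIs, and 0 to 6 nuclei of an end bin were too shallow and were left out. Cps1 was detected in 86.2% (83.7 to 88.4) of nuclei in the first and 50.9% (49.1 to 52.8) in the fifth bin under the label CD control. They were 96.6% and 90.6% under CD oncogene. On LPD they were 96.4% and 76.7% with the control label and 96.1% and 72.4% with the oncogene label. Without thinning they were 99.5% and 83.4%, 99.9% and 99.5%, 99.7% and 86.1%, and 98.3% and 84.8%.

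Arg1 was detected after thinning in 33.3% and 15.5% of the nuclei of the end bins under the label CD control, 40.7% and 28.2% under CD oncogene, 74.2% and 33.8% under LPD control, and 42.5% and 20.8% under LPD oncogene. The intervals of the end bins of Arg1 did not overlap in any library. For Otc they overlapped in both LPD libraries, at 28.8% (24.0 to 33.9) and 24.3% (21.3 to 27.5) under LPD control and at 14.4% (9.60 to 20.3) and 10.2% (8.29 to 12.3) under LPD oncogene. Nags was detected in 0.552% to 1.19% of thinned nuclei at either end, and in at most 0.676% of thinned endothelial-like nuclei.

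These shares must be read beside those of endothelial-like nuclei, where UMIs of the enzymes can be free RNA or the cells' own transcripts. Which of these they were was not tested. Endothelial-like nuclei, with a median of 751.5 to 1163.5 UMIs and 211 to 673 per library too shallow to thin, held Cps1 after thinning in 34.4% (29.6 to 39.4) with the CD control label and in 89.8% (85.7 to 93.0) with the CD oncogene label. On LPD the share of such nuclei with Cps1 was 44.0% (34.8 to 53.5) in the control and 24.3% (19.5 to 29.6) in the oncogene library. In the library labelled CD oncogene the Cps1 share is near its ceiling in both kinds of nuclei, and the levels were apart, at 4110.1 CPM (4081 to 4139) and 38.8 UMIs per nucleus in bin 5 against 2449.7 CPM (2332 to 2572) and 2.92 UMIs per endothelial-like nucleus. In the same bin the Asl share of 10.1% (8.81 to 11.5) overlapped the endothelial 8.87% (5.88 to 12.7). In CPM, the UCE sum of endothelial-like nuclei was 27.4%, 56.7%, 17.1% and 12.3% of that in all hepatocyte nuclei. When the mean UMIs of an endothelial-like nucleus of the same library were taken from each hepatocyte nucleus, the log2 gradients of the UCE sum were 1.34, 0.26, 0.70 and 0.76, in place of 1.26, 0.24, 0.67 and 0.74. This subtraction is called one of free RNA below, although these UMIs may include transcripts made in the endothelial-like nuclei.

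**Figure D3:**
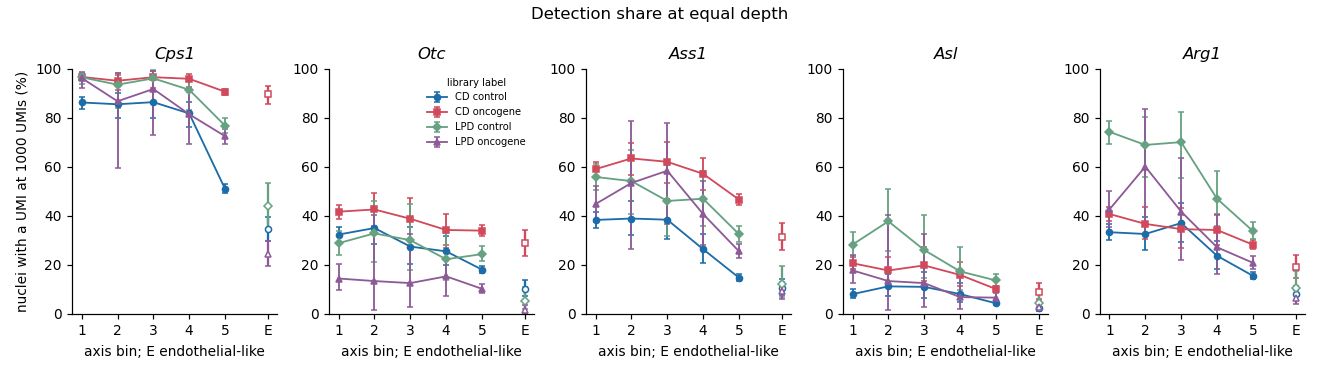
Percent of nuclei with at least 1 UMI of each UCE after thinning to 1000 UMIs (vertical axis), by bin of the axis and in endothelial-like nuclei (E, open markers), 1 line per library label, with Clopper-Pearson 95% bars. Cps1 stands at 50.9% in bin 5 under the label CD control, and the open marker of CD oncogene stands at 89.8%, level with its own bin 5.

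The number of UCEs seen together followed the axis. Thinned nuclei with none of the 5 UCEs made up 4.41% (3.12 to 6.03) of the first and 34.5% (32.8 to 36.3) of the fifth bin under the label CD control. The shares were 0.256% and 4.77% under CD oncogene, 0.297% and 14.0% under LPD control, and 1.66% and 20% under LPD oncogene. In endothelial-like nuclei they were 48.0%, 5.12%, 40.5% and 62.8%.

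Within the fifth bin, nuclei with Glul had less of the UCEs. Glul was not used to place nuclei. It marks the layer next to the central vein in normal liver. Under the label CD control transgene-positive nuclei also held Glul, so nuclei with a Glul UMI cannot be equated with that layer. Each other library had at most 1 transgene-positive nucleus in this bin, too few to show whether the same held there. After thinning, the UCE sum was 603 CPM (552 to 658) in 839 nuclei with a Glul UMI and 2118 CPM (2055 to 2182) in 2015 nuclei without one under the label CD control. It was 2206 and 5799 CPM under CD oncogene, in 223 and 1789 nuclei, and 1564 and 5028 CPM under LPD control, in 140 and 633 nuclei. Under LPD oncogene it was 1439.8 and 3907 CPM, in 216 and 698 nuclei. The log2 ratios were -1.81 (-1.95 to -1.68), -1.39 (-1.53 to -1.26), -1.68 (-1.89 to -1.49) and -1.44 (-1.61 to -1.27), larger in size than the gradient of the UCE sum over the axis in each library. In CPM the level with Glul was below that of endothelial-like nuclei in both CD libraries, 819 and 3512 CPM, but those nuclei were shallower, with medians of 1163.5 and 1023 UMIs, and held 1.05 and 4.19 UCE UMIs per nucleus.

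Cps1 and Arg1 showed this difference in each library. Cps1 was 344 against 1357 CPM under the label CD control and 1422 against 4089 CPM under CD oncogene, each with Glul named first. It was 907 against 3493 CPM under LPD control and 1097 against 2990.0 CPM under LPD oncogene. Arg1 was 46.5 against 236 CPM, 117 against 399 CPM, 221 against 567 CPM and 116 against 308 CPM in the same order of labels. Asl was the exception, with intervals of its log2 ratio that included 0 under CD oncogene (-1.5 to 0.07), LPD control (-1.64 to 0.09) and LPD oncogene (-0.64 to 1.09), where 14 to 17 of its UMIs lay in nuclei with Glul. The ratios of Slc25a15 and Nags had intervals that included 0 in all 4 libraries.

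Nuclei with Glul also held more Cyp2e1, 2685 against 2126 CPM under the label CD control, and had fewer UMIs before thinning, with medians of 6191 against 6512 in that library and 2956 against 3881 under LPD control. Of the nuclei with Glul under the label CD control 64 carried a transgene UMI, against 13 of those without. Over all nuclei of bin 5 in that library the UCE sum was 616 CPM in 77 transgene-positive nuclei and 1867 CPM in 2779 others, while Glul was 2012 and 656 CPM. The parts of Glul, depth and transgene in these differences were not tested apart from each other. Without the transgene-positive nuclei the log2 gradient of the UCE sum under the label CD control was 1.23 in place of 1.26. The paper reports that transgene transcripts were found in few cells, so nuclei without such a UMI can still carry the oncogenes. This value therefore cannot show the part of all oncogene-bearing nuclei in the gradient.

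**Figure D4:**
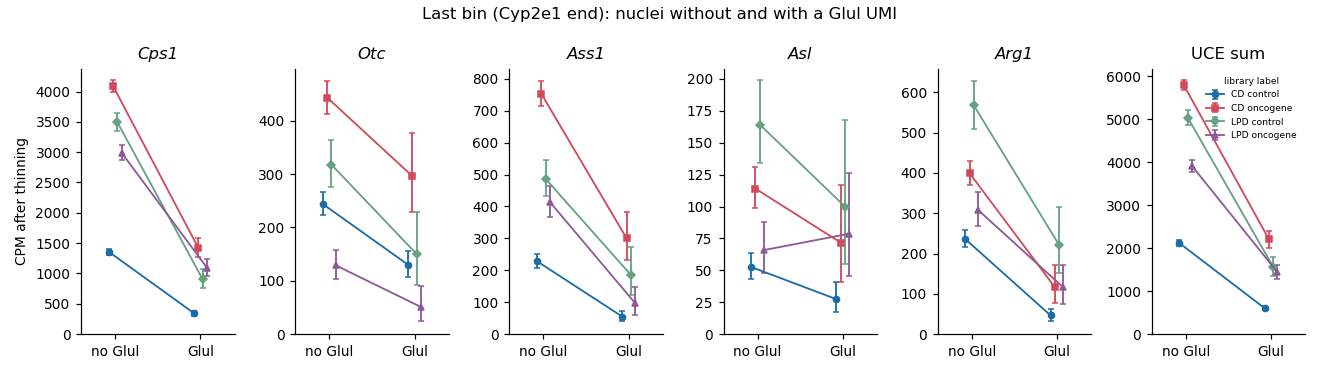
CPM after thinning to 1000 UMIs (vertical axis, from 0) in nuclei of the fifth bin without and with a Glul UMI, for each UCE and the UCE sum, 1 line per library label, with exact Poisson 95% bars. Under every label the UCE sum is lower with Glul, from 2118 to 603 CPM under CD control, and the bars of Asl overlap in the other 3 libraries.

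By label, the UCE sum was higher in the oncogene than in the control library on CD and lower on LPD, but with the 2 CD labels exchanged it was lower on both diets. To hold the spread of nuclei over the axis fixed, the CPM of each bin was weighted by the mean share of nuclei per bin over the 4 libraries, which gave the fifth bin 64.1% and the first 22.9%. The paper reports that oncogene-expressing hepatocytes, mostly outside the pericentral zone, took on its expression, with high Cyp2e1 and low Cyp2f2. Under the label CD control, 77 of 78 placed transgene-positive nuclei fell in bin 5. A bin thus need not hold the same lobule position in each library, and ratios by bin are not matched for position. The standardized UCE sum was 6123 CPM under the label CD oncogene and 2659 CPM under CD control, a log2 ratio of 1.2 (1.19 to 1.21), or -1.2 with the labels exchanged. It was 4309 CPM under LPD oncogene and 5625 CPM under LPD control, a log2 ratio of -0.38 (-0.41 to -0.36). Over all hepatocyte nuclei, without regard to the axis, the log2 ratios were 1.05 (1.04 to 1.06) and -0.49 (-0.50 to -0.48).

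The CD difference was largest at the Cyp2e1 end. From the first to the fifth bin the log2 ratio of the UCE sum, CD oncogene over CD control by label, was 0.65, 0.63, 0.81, 0.88 and 1.67. For Cps1 it was 0.60 in the first and 1.81 in the fifth bin, and for Asl it was 1.49 and 1.4. On LPD the ratio of the UCE sum was -0.32, -0.52, -0.67, -0.43 and -0.39 from the first to the fifth bin, and its end bins had overlapping intervals.

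The members differed in size within each diet. By label, standardized Cps1 was 2.42-fold, Ass1 2.74-fold and Asl 2.71-fold higher under CD oncogene than under CD control, and these 3 passed 2-fold, as did 2.49% of all genes; 2.1% passed in the other direction, with no member among them. Otc was 1.81-fold, Slc25a15 1.75-fold and Arg1 1.56-fold higher, while Nags had a log2 ratio of -0.84 (-1.06 to -0.63). On LPD, Otc was lower past 2-fold with a log2 ratio of -1.27 (-1.41 to -1.14) and so did Asl with -1.16 (-1.32 to -1.0), as did 1.09% of all genes, while 1.55% passed in the other direction, with no member among them. Arg1 followed with -0.88, Slc25a15 with -0.44, Ass1 with -0.35 and Cps1 with -0.22, and the interval of Nags, -0.86 to 0.51, included 0.

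The level in endothelial-like nuclei moved with both contrasts. In endothelial-like nuclei the log2 ratio of the UCE sum was 2.10 (1.97 to 2.23) for CD oncogene over CD control and -0.97 (-1.14 to -0.79) for LPD oncogene over LPD control. The part of this level in the difference between labels was not tested beyond 1 alternative. With the level taken from each hepatocyte nucleus, the standardized log2 ratios were 1.17 and -0.37. Fewer cells that express a gene and less RNA per cell cannot be told apart in a summed value of this kind.

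**Figure D5:**
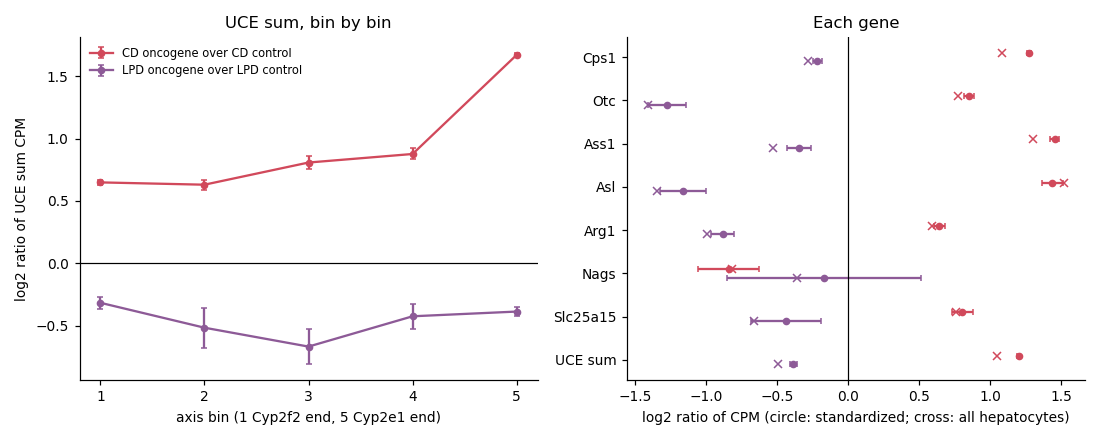
Left, log2 ratio of UCE sum CPM between the oncogene and control labels (vertical axis) by bin of the axis, 1 line per diet; right, the same ratio for each gene (horizontal axis), standardized over the bins (circles, with 95% intervals for counting error) and over all hepatocyte nuclei (crosses). The CD line runs from 0.65 to 1.67 and the LPD line stays below 0.

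By diet within a label, the standardized UCE sum was 2.12-fold higher under LPD control than under CD control, and the log2 ratio of LPD oncogene over CD oncogene was -0.51 (-0.53 to -0.49). Asl was 4.13-fold and Arg1 2.78-fold higher under LPD control than under CD control, Cps1 was 2.14-fold higher, and these 3 passed 2-fold, as did 6.12% of all genes, against 4.02% and no member in the other direction. Under the oncogene labels Otc, at -1.95, and Slc25a15, at -1.4, passed 2-fold in the other direction, as did 4.51% of all genes, against 7.36% and no member upwards, and Arg1 had an interval of -0.12 to 0.02. With the CD labels exchanged both directions of the UCE sum were turned, to a log2 ratio of -0.12 (-0.14 to -0.10) for the control and 0.70 (0.67 to 0.72) for the oncogene libraries, LPD over CD. Asl and Arg1 were then higher on LPD in both pairs, at 0.61 and 0.83 in the control and 0.88 and 0.59 in the oncogene pair. Otc was lower, at -0.67 and -1.09, as was Slc25a15, at -0.96 and -0.59. Cps1, at -0.17 and 0.88, and Ass1, at -0.54 and 0.57, went opposite ways in the exchanged pairs. By label, Asl was lower under LPD oncogene than under CD oncogene, at -0.56 (-0.70 to -0.41). These contrasts share libraries with the ones above, and depth and mitochondrial share also differ between the diets.

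Among 23 neighbours of the cycle, 18 were high enough to compare, and Gls2, Oat and Glul passed 2-fold in every library. Gls2, the liver glutaminase that releases ammonia from glutamine, was 306 and 32.1 CPM in the end bins under the label CD control and 335 and 80.5 CPM under CD oncogene. It was 425 and 64.6 CPM under LPD control and 155 and 16.6 CPM under LPD oncogene, so it stood with the UCEs at the Cyp2f2 end with a steeper gradient. Oat, which breaks down ornithine, was 6.10 and 156 CPM under the label CD control and 6.90 and 66.2 CPM under CD oncogene. It was 6.45 and 30.7 CPM under LPD control and 2.65 and 38.0 CPM under LPD oncogene, the opposite order. Ca5a, the mitochondrial carbonic anhydrase that is listed as Car5a, did not pass 2-fold in any library. In all, 3, 1, 2 and 1 neighbours passed 2-fold at the Cyp2f2 end and 3, 3, 2 and 2 at the Cyp2e1 end, with medians of -0.05, -0.06, 0.07 and -0.04. Among all genes, 2.03%, 2.16%, 1.96% and 2.19% passed at the Cyp2f2 end and 2.8%, 2.4%, 2.33% and 2.29% at the Cyp2e1 end.

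Regulators of the urea cycle genes were too few to compare with the 1.96% to 2.8% of all genes past 2-fold in either direction. Of 15 listed, 14 or 15 were high enough, and the only 1 past 2-fold was Ppargc1a, a coactivator of fasting genes, under the label LPD control, at 204 and 84.8 CPM in the end bins. Hnf4a, a master factor of hepatocyte genes, was 256 and 254 CPM under the label CD control and 380.0 and 354 CPM under LPD oncogene. Medians of the list were 0.01, 0.05, 0.16 and 0.09.

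The pattern most like the UCE sum over the 20 points of 5 bins in 4 libraries was that of Slc7a2, a carrier of arginine and other cationic amino acids, with a Pearson r of 0.95 across these points. Slc8b1, Slc25a51, Col5a3 and Fbp1 followed with 0.87, 0.87, 0.87 and 0.86, among 8745 genes ranked. Slc7a2 was also nearest to Cps1, with 0.95, while Cyp2c23 was nearest to Otc (0.94), Itih3 to Ass1 (0.93), Fbp1 to Asl (0.95) and Gcnt2 to Arg1 (0.95). Among the members, Cps1 and Ass1 had an r of 0.91 and Asl and Arg1 of 0.91, whereas Otc had 0.33 with Cps1 and 0.79 with Slc25a15. The points of 1 library share its depth and free RNA, so these values are descriptions.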

How the data were processed

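The authors deposited UMI counts per gene and nucleus barcode for each library, not normalized, with feature and barcode lists that hold names only. Per the file headers they were made with Cell Ranger 9.0.1, and the study's methods name mm10 with the human transgenes added. Whether intron reads were counted is not given in the sources used here.

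Nuclei with 200 to 7000 genes and at most 21% mitochondrial UMIs were kept. Clustering followed the study's settings (5000 variable genes, 23 of 50 components after Harmony as implemented for this work, 20 neighbours, Louvain at resolution 0.4), without the members, the axis genes, the transgenes and the lists of neighbours, regulators and comparators. A cluster was given another cell type when 3 or more markers and 50% of that type's list were raised 3-fold. Clusters left over were called hepatocyte-like when 3 of 12 hepatocyte markers stood 1.5-fold above the median of the other named clusters, which gave 5 clusters. These thresholds were set after the counts, and values of the members by bin for 2 candidate sets of clusters, had been seen. A first version, 2-fold over a pooled level, had left 4 of those 5 unnamed. A low-depth cluster of 3064 nuclei had 11 of the 12 hepatocyte markers raised but was left unnamed. By a further rule, a low-depth cluster needed a hepatocyte marker among its 10 leading genes, and this one had none. The 3 doublet clusters were removed. Scrublet (scanpy 1.11.5) called at most 0.0102% of the nuclei of a library at its own threshold and did not work, so the 8% highest scores were left out as an alternative.

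CPM are UMIs summed over nuclei and scaled to the total of all mouse genes. For all genes, at least 20 CPM in an end bin and 50 UMIs were needed, with a pseudocount of 5 CPM. Single libraries allow no test. Sums, ratios and shares carry exact Poisson, conditional and Clopper-Pearson 95% intervals, and standardized ratios carry delta-method ones. TMM factors came from edgeR 4.0.16. Scripts were tested on simulated data. The members and lists were chosen with earlier results of these data known. Genes named are the members, the axis genes, Glul, neighbours of the cycle past 2-fold in every library, and the nearest genes by correlation. The periportal and pericentral comparator lists held further genes past 2-fold in every library, which are not named. Hal, Sds, Igfbp2, G6pc, Pck1, Ca5a, Hnf4a and Ppargc1a were chosen after their values were seen.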

Additional observations from a re-analysis of the deposited data

Results flagged for a closer look

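The standardized contrast of the oncogene over the control label had opposite signs on the 2 diets for the UCE sum and for 6 of the 7 members, and this difference between the diets was not tested, since each group is 1 library. The log2 ratio of the UCE sum was 1.2 on CD and -0.38 on LPD. It was 1.27 and -0.22 for Cps1, 0.85 and -1.27 for Otc, and 1.45 and -0.35 for Ass1. It was 1.44 and -1.16 for Asl, 0.64 and -0.88 for Arg1, and 0.81 and -0.44 for Slc25a15. The transgene UMIs lay in the library labelled CD control, 100 against 0 under CD oncogene, and Glul ran the same way. With those 2 labels exchanged the log2 ratio of the UCE sum on CD was -1.2, the same sign as on LPD, and so were the signs of these 6 members.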

How the results depend on the processing

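No paired analysis was possible because each group is 1 library. The log2 gradient of the UCE sum stayed above 0, and the standardized log2 ratios of the oncogene over the control label kept their signs, under each alternative run other than an exchange of the CD labels. That exchange, chosen after seeing the data, turned the standardized log2 ratio on CD to -1.2, that of LPD over CD to -0.12 for the control and to 0.70 for the oncogene libraries. The other reversed value was the log2 gradient of Otc under the label LPD oncogene with at least 10 axis UMIs, -0.34, where the first bin held 7 nuclei.

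Values that moved beyond their counting interval follow, with the gradient of the UCE sum first. Under the label CD control it was 1.54 with at most 5% mitochondrial UMIs, 1.34 with at least 10 axis UMIs and with bins of equal numbers of nuclei, 3.05 on an axis of the comparator lists, 1.30 without the highest Scrublet scores, 1.35 as a mean over nuclei and 1.36 after thinning. Under CD oncogene it was 0.32 with the mitochondrial limit, 0.26 with at least 10 axis UMIs, 0.22 without correction for library, 0.27 as a mean over nuclei and 0.28 after thinning. Under LPD control it was 0.49 with equal bins, 0.57 on the comparator axis and 0.75 as a mean and after thinning. Under LPD oncogene it was 0.97 with at least 10 axis UMIs, 0.44 with equal bins, 1.12 on the comparator axis, 0.83 as a mean and 0.80 after thinning. Of the alternatives chosen after seeing the data, at least 3 axis UMIs gave 1.23, 0.22, 0.53 and 0.60, subtracted free RNA 1.34 and 0.26 on CD, leaving out transgene-positive nuclei 1.23 under CD control, and the low-depth cluster 0.22 under CD oncogene.

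The count of members past 2-fold was 5 under CD control with the mitochondrial limit and on the comparator axis, and 4 under LPD oncogene on that axis. Under CD oncogene it was 1 with equal bins, the comparator axis, the Scrublet filter, means, thinning and subtracted free RNA. At 1.5-fold it was 5, 2 and 4 under CD control, CD oncogene and LPD control. The count under LPD control includes Nags, at 1.62-fold from 14 and 19 UMIs, whose log2 interval of -0.41 to 1.77 includes 0. Under LPD oncogene, Cps1, at 1.57-fold, passed 1.5-fold beside Asl and Arg1.

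The standardized log2 ratio on CD was 1.24 with the mitochondrial limit, 1.51 with at least 10 axis UMIs, 1.26 with equal bins, 1.04 on the comparator axis, 1.22 with the Scrublet filter, 1.19 without correction for library and after thinning, 1.18 as a mean, 1.34 with TMM factors and 0.86 with equal bin weights. With the added alternatives it was 1.05 with at least 3 axis UMIs, 1.17 with free RNA subtracted and 1.19 without transgene-positive nuclei. On LPD it was -0.25 with at least 10 axis UMIs, -0.51 with equal bins, -0.46 on the comparator axis and with equal weights, and -0.43 with at least 3 axis UMIs. With at least 2 Glul UMIs the log2 ratios by Glul were -2.19, -2.24, -2.29 and -2.27. The causes of these shifts were not tested. Nags under both LPD labels and Slc25a15 under LPD oncogene gave no value with at least 10 axis UMIs.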
